A study of Mus musculus with 36 samples.

Results

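The 6 genes described here encode neuropeptide precursors and receptors for peptide hormones: Gal, Npy, Penk and Tac4 for the 4 ligands, Tshr and Avpr1a for the 2 receptors. They were selected by gene symbol, and all 6 were found among the 11337 genes measured in 36 RNA sequencing libraries of muscle stem cells, the Pax7-expressing satellite cells that repair skeletal muscle. The choice was made with levels in these libraries known. Tac4 and Tshr were chosen from the age comparisons, Avpr1a from wheel running in old mice and Gal from wheel running in young mice, so those differences are given below as descriptions with no test. Other comparisons of Tac4, Tshr, Avpr1a and Gal that share a group of libraries with the comparison behind the choice are not independent of it. The comparison that led to the choice of Penk and Npy is not recorded, and no test is given for either gene. Each library came from the hindlimb cells of 1 male C57BL6 mouse, per the labels, so replicates are mice.

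In the wheel cohort, old mice (18 months) and young mice (3 months) with wild-type Ccnd1 had a running wheel for 3 weeks that either turned freely or was locked: O(+Ex) with 5 mice, O(-Ex) with 7, Y(+Ex) with 3 and Y(-Ex) with 6. Their stem cells were sorted as viable cells with VCAM on the surface and without CD31, CD45 and Sca1. In the Ccnd1 cohort every mouse, controls included, carried the tamoxifen-inducible Cre driver Pax7-CreERT2 and the R26R-YFP reporter, received tamoxifen, and had viable YFP+ cells sorted 6 weeks later. Its groups were old mice with both Ccnd1 copies intact, O(WT), 3 mice at 18 months, and young mice at 3 months with both copies floxed, Y(KO), 5 mice, with a single floxed copy, Y(HET), 4 mice, or with none, Y(WT), 3 mice. Ccnd1 encodes cyclin D1, which drives entry into the cell cycle. Recombination rests on Pax7 promoter activity, and the sort selects recombination of the reporter, not of Ccnd1.

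Neuropeptides are made as longer precursors, cut by prohormone convertases, trimmed by carboxypeptidase E and often amidated by the enzyme Pam before they are secreted. Nearly all of them signal through G protein-coupled receptors, either through Gs or Gi and cyclic AMP or through Gq, phospholipase C and calcium. Galanin, the product of Gal, and neuropeptide Y are best known from neurons, where galanin acts on Galr receptors and neuropeptide Y on the Npy1r family. Penk encodes proenkephalin, the source of the enkephalins that bind opioid receptors, and Tac4 encodes hemokinin, a tachykinin related to substance P that binds the Tacr1 receptor. Tshr is the receptor for thyroid-stimulating hormone and couples mainly to Gs, and Avpr1a is the V1a vasopressin receptor and couples to Gq. Muscle stem cells are quiescent in resting muscle, and the related receptor for calcitonin, Calcr, is a known marker of that state.

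Promoter sequences are shown for the 4 genes with an entry in the RefSeq table (Avpr1a, Gal, Npy and Tac4), because Gal and Avpr1a had lower mean levels in the running groups of either age and Npy and Tac4 differed most with Ccnd1 genotype and age. Penk and Tshr had no entry. Each stretch runs 5′ to 3′ from 250 bases before to 50 bases after the gene start on GRCm38.p6, and capitals mark the motifs found. Those searched, on both strands, were the cyclic AMP response element half-site, whose letters are TGACG, the TATA box, the GC box and the AP-1 site.
Gal (chr19:3414495-3414794, minus strand): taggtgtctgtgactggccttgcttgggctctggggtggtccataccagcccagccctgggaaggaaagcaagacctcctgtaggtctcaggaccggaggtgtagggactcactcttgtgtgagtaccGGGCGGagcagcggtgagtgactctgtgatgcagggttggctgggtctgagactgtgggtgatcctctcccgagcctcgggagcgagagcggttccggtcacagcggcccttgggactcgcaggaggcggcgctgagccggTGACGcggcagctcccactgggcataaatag
Avpr1a (chr10:122448249-122448548, plus strand): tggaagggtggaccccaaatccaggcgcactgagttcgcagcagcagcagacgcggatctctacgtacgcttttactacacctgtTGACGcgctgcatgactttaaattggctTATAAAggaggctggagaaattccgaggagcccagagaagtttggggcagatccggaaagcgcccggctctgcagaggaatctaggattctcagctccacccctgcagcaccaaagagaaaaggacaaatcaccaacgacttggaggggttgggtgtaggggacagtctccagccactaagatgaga
Npy (chr6:49822460-49822759, plus strand): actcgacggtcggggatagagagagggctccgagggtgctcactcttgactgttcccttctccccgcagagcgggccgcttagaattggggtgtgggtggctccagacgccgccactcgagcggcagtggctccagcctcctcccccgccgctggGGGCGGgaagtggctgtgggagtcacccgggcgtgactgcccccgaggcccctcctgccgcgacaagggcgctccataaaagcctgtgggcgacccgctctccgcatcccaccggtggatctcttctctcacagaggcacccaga
Tac4 (chr11:95261279-95261578, plus strand): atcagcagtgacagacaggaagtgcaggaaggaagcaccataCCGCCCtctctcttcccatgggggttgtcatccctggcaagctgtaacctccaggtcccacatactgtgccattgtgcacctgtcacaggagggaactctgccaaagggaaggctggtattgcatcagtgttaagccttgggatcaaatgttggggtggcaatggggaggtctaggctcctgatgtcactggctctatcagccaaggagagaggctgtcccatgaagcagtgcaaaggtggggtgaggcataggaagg
The TGACG half-site, which 20.81% of 32851 promoters of that length hold, occurred in Gal at position 20 after the start and in Avpr1a at position -165, and in neither of the other 2. The TATA box, TATAAA (13.62% of promoters), occurred in Avpr1a alone, at -137. The GC box was searched as GGGCGG, which 35.66% of promoters hold. It occurred in Gal at -122, in Npy at -95 and, on the reverse strand, in Tac4 at -208. The AP-1 site, TGACTCA (5.202% of promoters), occurred in none of the 4 windows. No match overlapped another, and a match of letters is no evidence of a bound site.

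Levels are RPKM, reads scaled to exon length and library size, as deposited, so genes can be set beside each other per length. Gal was among the most abundant transcripts of these cells. Its mean over the 36 libraries was 2929 RPKM, rank 6 of 11337 genes, and its rank within a library ran from 4 to 26. The other 5 genes had means of 13.5 RPKM (Npy), 7.04 (Tac4), 6.21 (Avpr1a), 4.92 (Penk) and 4.24 (Tshr). Tac4 varied most between libraries, with a highest value 35.2 times its lowest, and Gal least, with 4.69 times. On mm10 the genes lie at chr19:3409915-3414544 (Gal, minus strand), chr6:49822710-49829507 (Npy, plus), chr4:4133531-4138819 (Penk, minus), chr11:95261529-95269265 (Tac4, plus), chr12:91384563-91549808 (Tshr, plus) and chr10:122448499-122453452 (Avpr1a, plus). Exons of Penk overlap the antisense transcript A830012C17Rik in GENCODE M21, and no source used here says whether reads were counted by strand, so Penk values are uncertain to that extent.

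All 13 listed satellite cell markers were measured, with Pax7 between 14.2 and 32.5 RPKM and Myf5 between 72.4 and 301.1 RPKM in single libraries. Their levels were not even across groups. For age in the wheel cohort 1 of the 13 was called higher and 5 lower, beside 38.3% of all genes called. For Y(HET) against Y(WT) 3 of the 13 were called lower and 0 higher, beside 5.39% of all genes. Ccnd1 itself was 2.07 to 3.40 RPKM in Y(KO), 6.37 to 8.13 RPKM in Y(HET) and 10.6 to 13.3 RPKM in Y(WT) libraries. All 4 Y(HET) libraries stood apart for keratinocyte genes: the 7 markers found of 10 summed to 83.1 to 201.3 RPKM in Y(HET) and 5.23 to 9.07 RPKM in Y(KO), against 6.69 to 8.23 RPKM in Y(WT). O(WT) replicate 2 also carried keratin (Krt14 at 2.92 RPKM, against 0.00755 to 0.0184 RPKM in Y(WT)). The deposited values lack part of the spread that 36 separate libraries would have. After centring, the log2 table had rank 29 of a possible 35, so 6 directions of variation are absent. At an unadjusted p under 0.05 O(WT) against O(-Ex) and Y(WT) against Y(-Ex) differed at 0 genes each in limma, where chance alone gives 567. Tests below rest on that reduced spread, and the 2 age comparisons are not independent of each other. In bulk libraries, fewer cells of a type and less RNA per cell cannot be told apart.

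**Figure D1:**
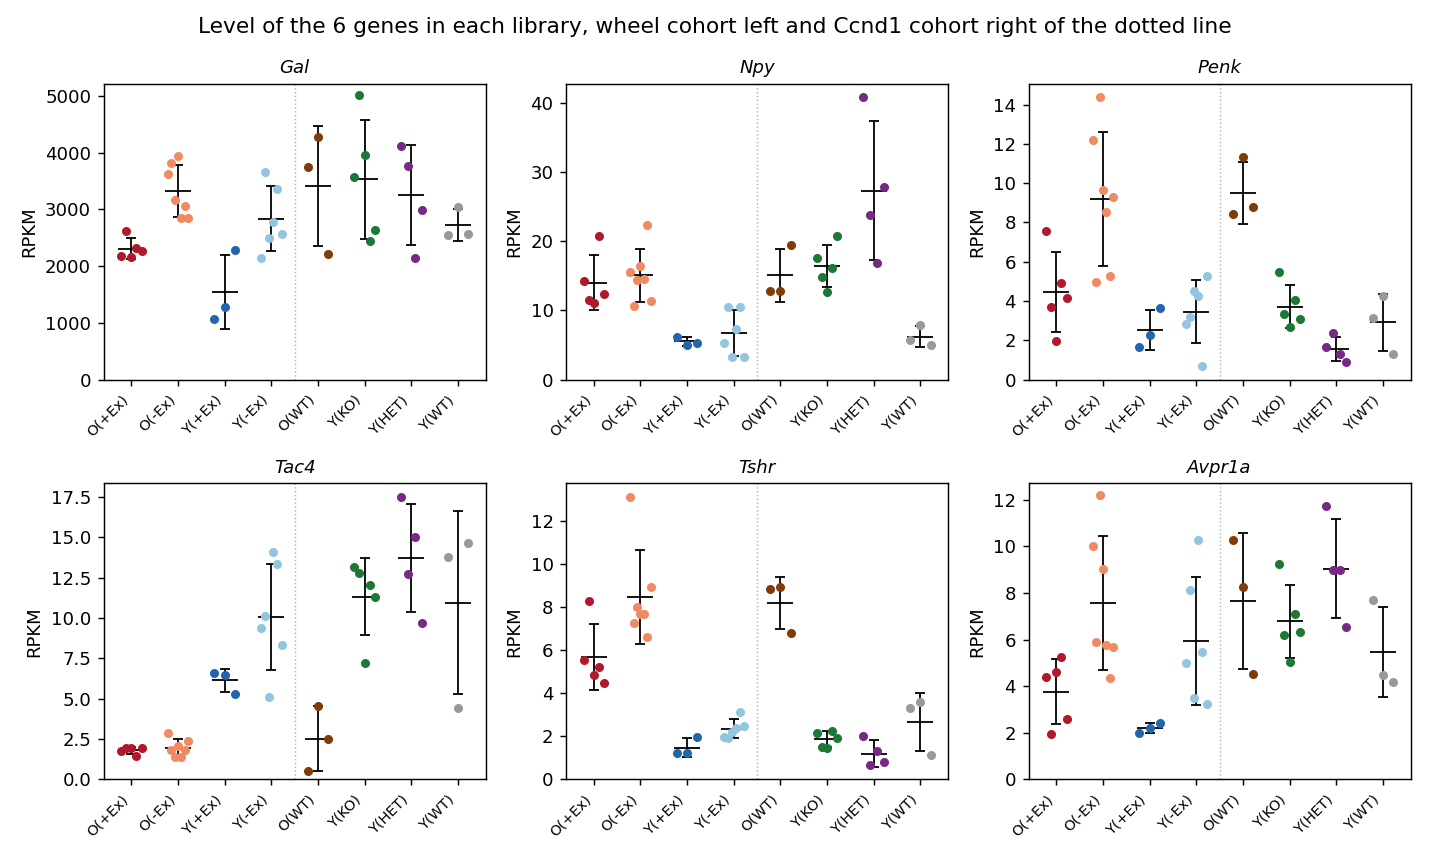
RPKM of each gene (vertical axes, linear, from 0) in the 8 groups (horizontal axis), 1 point per mouse, with the mean and its SD as black bars. Tac4 was below 5 RPKM in every old library, Tshr below 4 RPKM in every young one, Gal and Avpr1a had their lowest group means in Y(+Ex), and Npy had its highest in Y(HET).

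Galanin was lower in running than in sedentary mice at both ages and passed the test for neither age nor Ccnd1 genotype. In O(+Ex) libraries Gal was 2177, 2622, 2162, 2311 and 2270.1 RPKM, whereas O(-Ex) libraries had a lowest value of 2842, a median of 3167 and a highest of 3931 RPKM. Every running old mouse was thus below every sedentary one. The 1.43-fold lower level (log2 difference -0.52 ± 0.15 SE) passed the test in limma with Benjamini-Hochberg adjustment over all genes (adjusted p = 0.0398), and the exact two-sided permutation p was 0.00126, the smallest these group sizes allow. The call was kept without O(-Ex) replicate 5, 6 or 7 and was lost in each of the other 9 omissions of a single library, with adjusted p from 0.0372 to 0.0967 over the 12. In this comparison 7.39% of all genes were called, and Gal shares no library with its selection there. Tac4 was not called in it, and the Tshr difference is given below without a test.

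In Y(+Ex) libraries Gal was 1067, 1272 and 2278 RPKM, against a lowest value of 2151, a median of 2674 and a highest of 3659 RPKM in Y(-Ex). The first 2 running mice were below the whole sedentary range and the third lay just inside it. This is the comparison that chose Gal, so the 1.91-fold lower level (log2 -0.94 ± 0.18 SE) is given without a test. In the same comparison 1.12% of all genes were called, and neither of the 2 genes tested in it, Tshr and Avpr1a, was among them. Both had an exact two-sided permutation p under 0.05 before adjustment. The Tac4 difference is given below without a test. The log2 difference between the wheel effects, old minus young, was 0.42 ± 0.24 SE for Gal.

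The age difference in Gal did not pass the test. Its mean was 3326 ± 454 RPKM in O(-Ex) and 2835 ± 569.6 RPKM in Y(-Ex) (SD, n = 7 and 6 mice), a log2 difference of 0.24 ± 0.14 SE (limma, adjusted p = 0.19). O(WT) libraries had 3739, 4269 and 2221 RPKM, against 2541, 3041 and 2567 RPKM in Y(WT), with overlapping ranges (0.28 ± 0.30 SE, limma, adjusted p = 0.56). For age, 38.3% of all genes were called in the wheel cohort and 15.8% in the Ccnd1 cohort. Neither of the 2 genes tested for age (Gal and Avpr1a) was called in either. Their unadjusted p in limma was 0.104 and 0.199 in the wheel cohort and 0.372 and 0.156 in the Ccnd1 cohort. The wheel cohort tests share libraries with the choice, Y(-Ex) for Gal and O(-Ex) for Avpr1a, and are not independent of it. That favours a smaller age difference for Gal and a larger one for Avpr1a. Y(KO) libraries had 3576, 5007, 3959, 2441 and 2644 RPKM and Y(HET) libraries 4111, 3760.4, 2141 and 2993 RPKM. Both ranges overlapped that of Y(WT), and the log2 differences were 0.33 ± 0.27 SE for Y(KO) and 0.22 ± 0.28 SE for Y(HET) (limma, adjusted p = 0.47 and 0.675). Ordered by mean, the groups ran from Y(KO) at 3525 RPKM through O(WT), O(-Ex), Y(HET), Y(-Ex) and Y(WT) to O(+Ex) at 2308 and Y(+Ex) at 1539 RPKM, and each neighbouring pair overlapped.

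Neuropeptide Y was higher in old mice and in young mice with 1 or both Ccnd1 copies floxed, and the wheel differences were smaller than their SE. In the wheel cohort Npy had a lowest value of 10.7, a median of 14.6 and a highest of 22.4 RPKM in O(-Ex), against 3.32, 6.36 and 10.6 RPKM in Y(-Ex). The ranges did not overlap, and the mean log2 difference was 1.28 ± 0.26 SE, 2.43-fold. O(WT) libraries had 12.8, 12.9 and 19.5 RPKM, against 5.71, 7.89 and 5.03 RPKM in Y(WT), without overlap and with a log2 difference of 1.28 ± 0.28 SE. As said above, the age comparisons of the wheel and Ccnd1 cohorts are not independent, so the likeness of these values is no replication. O(+Ex) libraries had 14.3, 11.5, 11.1, 20.7 and 12.4 RPKM, inside the O(-Ex) range, a log2 difference of -0.11 ± 0.27 SE. Y(+Ex) libraries had 6.22, 5.07 and 5.31 RPKM, inside the Y(-Ex) range (-0.13 ± 0.33 SE).

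The Ccnd1 genotypes had the widest Npy range of the series. Y(KO) libraries had 17.6, 14.8, 12.6, 16.2 and 20.7 RPKM and Y(HET) libraries 40.9, 23.7, 16.9 and 27.8 RPKM, all above the highest Y(WT) library at 7.89 RPKM. On the log2 scale Y(KO) exceeded Y(WT) by 1.41 ± 0.25 SE (2.65-fold) and Y(HET) exceeded Y(WT) by 2.09 ± 0.26 SE (4.26-fold). Against Y(HET), Y(KO) was 0.69 lower (-0.69 ± 0.23 SE), with overlapping ranges. Among all genes 101 had a larger absolute difference than Npy in Y(KO) against Y(WT), and 53 in Y(HET) against Y(WT). Beside the Y(HET) value stands the keratin excess: Krt14 was 41.8, 31.9, 42.8 and 95.8 RPKM in Y(HET), against 0.0148, 0.00755 and 0.0184 RPKM in Y(WT), and the HET genotype and the keratinocyte genes cannot be told apart in these libraries. In Y(KO), where Npy was also high, Krt14 was between 0.00545 and 0.0471 RPKM. Ordered by mean, Y(HET) at 27.3 RPKM, Y(KO) at 16.4, O(-Ex) and O(WT) at 15.1 each and O(+Ex) at 14.02 overlapped pairwise with their neighbours, and the next step, to Y(-Ex) at 6.74, was a gap between ranges; Y(WT) at 6.21 and Y(+Ex) at 5.53 RPKM overlapped with it.

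The receptor Npy1r, the one other gene of the neuropeptide Y system in the table, was measured in the same libraries at a low level. Npy1r rose with age in the wheel cohort (log2 1.49 ± 0.34 SE, limma, adjusted p = 0.00167), with 1.03 ± 0.37 RPKM in O(-Ex) and 0.362 ± 0.123 RPKM in Y(-Ex) (SD, n = 7 and 6 mice), and this call was kept in all 13 omissions of a library. O(WT) had 1.40, 0.607 and 0.957 RPKM, against 0.826, 0.191 and 0.288 RPKM in Y(WT), a log2 difference of 1.39 ± 0.46 SE that missed the threshold (limma, adjusted p = 0.0539, and 0.044 without O(WT) replicate 2 or 0.00737 without Y(WT) replicate 1). Npy1r rose in Y(KO) and in Y(HET) relative to Y(WT). Y(KO) libraries had 1.63, 2.44, 2.12, 1.15 and 1.15 RPKM, and Y(HET) libraries had 2.09, 2.16, 1.56 and 1.46 RPKM, above all 3 Y(WT) libraries. The log2 differences were 2.18 ± 0.41 SE (limma, adjusted p = 0.0116) and 2.33 ± 0.43 SE (limma, adjusted p = 0.0126). Without Y(WT) replicate 2, the lowest of its group, the adjusted p was 0.0612 for Y(KO) and 0.0615 for Y(HET), and without Y(WT) replicate 3 it was 0.0545 for Y(KO). The wheel comparisons gave -0.26 ± 0.36 SE in old and -0.20 ± 0.43 SE in young mice, neither called. The Y(KO) and Y(HET) comparisons share their Y(WT) libraries.

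**Figure D2:**
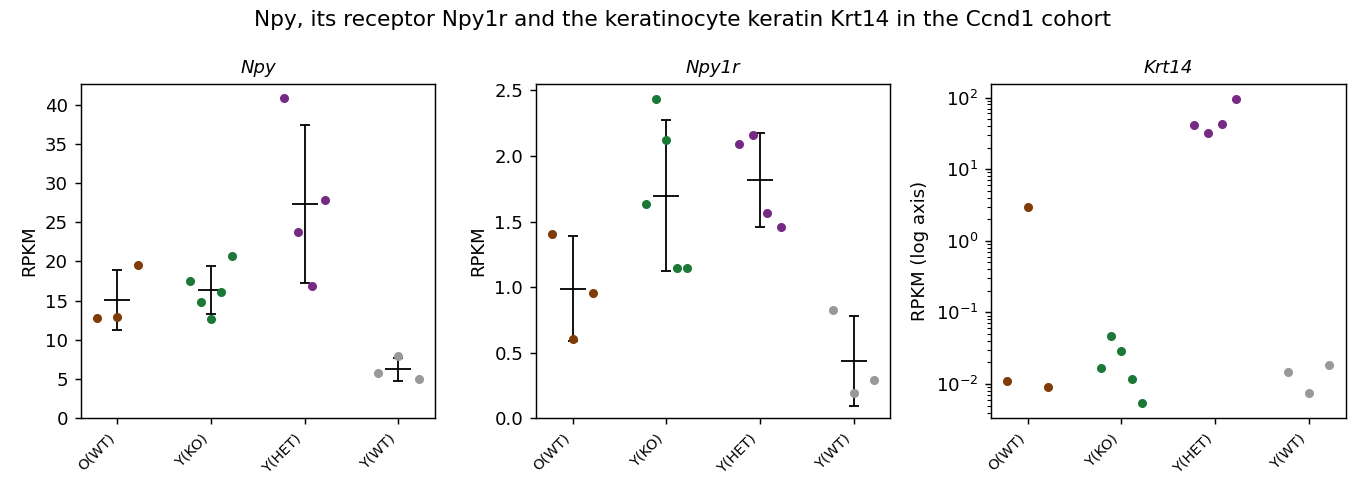
RPKM of Npy, of its receptor gene Npy1r (linear axes from 0, mean and SD as black bars) and of the keratinocyte gene Krt14 (log axis), 1 point per mouse, in the 4 groups of the Ccnd1 cohort. All Y(KO) and Y(HET) libraries exceed all Y(WT) libraries for Npy and Npy1r, whereas Krt14 is high in the 4 Y(HET) libraries and in O(WT) replicate 2.

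Proenkephalin was higher in old than in young mice and lower in old runners than in sedentary old mice. Penk had a lowest value of 4.97, a median of 9.29 and a highest of 14.4 RPKM in O(-Ex), against 0.712, 3.72 and 5.25 RPKM in Y(-Ex). The ranges overlapped slightly, and the log2 difference was 1.55 ± 0.40 SE (2.94-fold). In the Ccnd1 cohort O(WT) libraries had 8.44, 11.3 and 8.78 RPKM, against 3.16, 4.24 and 1.33 RPKM in Y(WT), without overlap (1.85 ± 0.40 SE, 3.61-fold). O(+Ex) libraries had 7.58, 3.68, 1.95, 4.92 and 4.18 RPKM, 4 of the 5 below the O(-Ex) minimum, a log2 difference of -1.08 ± 0.42 SE (2.12-fold lower). Y(+Ex) libraries had 1.66, 2.29 and 3.67 RPKM, inside the Y(-Ex) range (-0.29 ± 0.51 SE).

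Among the Ccnd1 genotypes Penk was highest in Y(KO) and lowest in Y(HET). Y(KO) libraries had 5.47, 3.34, 2.68, 4.04 and 3.07 RPKM and Y(HET) libraries 1.66, 2.36, 1.29 and 0.902 RPKM, and every Y(KO) value exceeded every Y(HET) value (log2 difference 1.30 ± 0.33 SE, 2.47-fold). Both ranges overlapped that of Y(WT), with 0.46 ± 0.36 SE for Y(KO) and -0.84 ± 0.38 SE for Y(HET). Without Y(WT) replicate 3, the lowest of its group, Y(KO) minus Y(WT) was -0.02. For Y(KO) against Y(HET), 6.04% of all genes were called, and none of the 4 genes tested there (Gal, Tac4, Tshr and Avpr1a) was, with adjusted p from 0.227 to 0.836 (limma; the lowest unadjusted p was 0.0529). The keratin excess of Y(HET) lies beside these values too, and its part in them was not tested. In order of mean level, O(WT) at 9.52 and O(-Ex) at 9.19 RPKM led, O(+Ex) followed at 4.46 RPKM, and the young groups ran from 3.72 RPKM in Y(KO) to 1.55 in Y(HET), each overlapping its neighbour.

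The genes whose log2 levels followed Penk most closely over the 36 libraries were Myoc (Pearson r = 0.80), Dcn (0.79) and Agpat5 (0.78), with 0.68, 0.51 and 0.63 after group means were removed. Dcn encodes decorin, a matrix proteoglycan and one of the 12 listed markers of fibro-adipogenic progenitors, the interstitial fibroblasts of muscle. It averaged 112.1 ± 29.8 RPKM in O(-Ex) and 57.0 ± 14.7 RPKM in Y(-Ex) (SD, n = 7 and 6 mice). The log2 difference was 0.98 ± 0.20 SE, and 0.84 to 1.08 with a library left out. Dcn was picked for following Penk in these same libraries, which favours an age difference, so no test is attached. The summed level of the 11 markers found was 793 to 1386 RPKM in O(-Ex) and 908 to 1172 RPKM in Y(-Ex), but Gsn made up most of it, at 716.4 ± 180.5 RPKM in O(-Ex) and 768.2 ± 106.8 RPKM in Y(-Ex). The other 10 summed to 378 to 453 RPKM in O(-Ex) and 241 to 289 RPKM in Y(-Ex), without overlap, and to 346 to 424 RPKM in O(+Ex). These 10 include Dcn, so the gap between the sums rests in part on a gene picked for following Penk. The list median was 0.43 on the log2 scale, against 0.01 over all genes. At adjusted p under 0.05 in limma, 4 of the 11 were higher and 1 lower, beside 38.3% of all genes called. The 4 include Dcn, so this count and the list median are not independent of its choice. Pdgfra, their defining receptor, was 0.483 to 0.902 RPKM in O(-Ex) and 0.539 to 1.05 RPKM in Y(-Ex). The sort of this cohort took cells without Sca1 on the surface, a gate that removes these progenitors, yet Ly6a, which encodes Sca1, was 81.1 ± 8.8 RPKM in O(-Ex) and 51.4 ± 7.2 RPKM in Y(-Ex). The part of such cells in the Penk values was not tested.

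**Figure D3:**
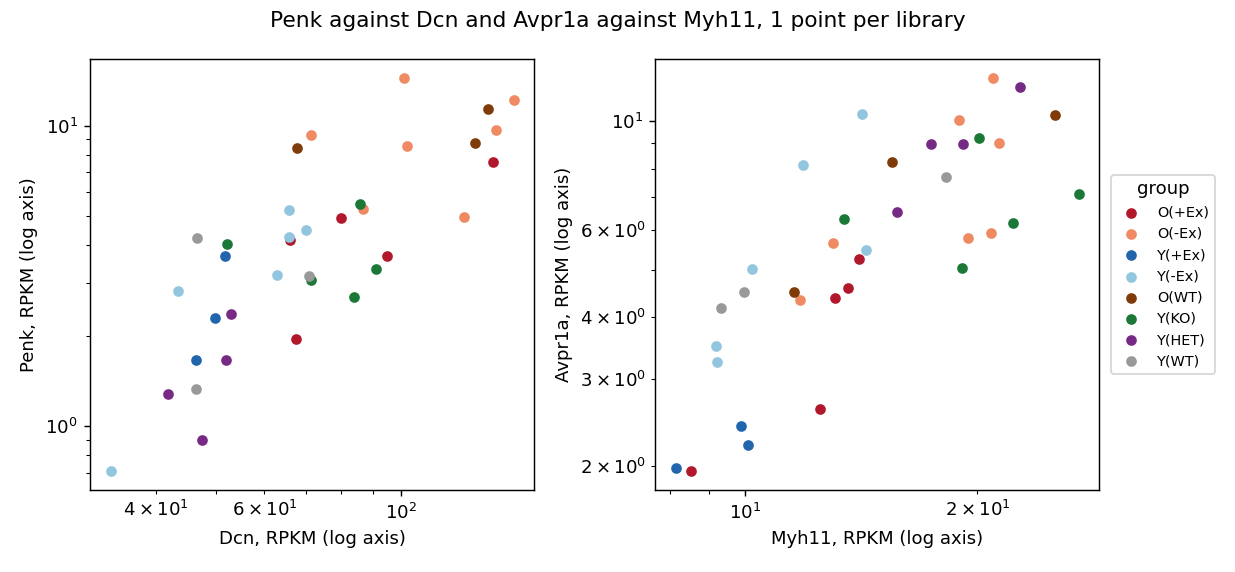
Penk against Dcn (left) and Avpr1a against Myh11 (right), both axes RPKM on log scales, 1 point per library, coloured by group. Penk and Dcn are both high in sedentary old mice, and Avpr1a and Myh11 are both low in the 3 Y(+Ex) libraries.

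The hemokinin precursor was lower in old mice, the one gene of the 6 with a negative age difference. Tac4 had a lowest value of 1.40, a median of 1.83 and a highest of 2.85 RPKM in O(-Ex), against 5.13, 9.75 and 14.1 RPKM in Y(-Ex), and the ranges did not overlap. The level was 5.00-fold lower in O(-Ex) (log2 -2.32 ± 0.19 SE), and 36 of the 11337 genes had a larger absolute difference. O(WT) libraries had 0.497, 4.54 and 2.53 RPKM, against 13.8, 4.43 and 14.6 RPKM in Y(WT), 5.39-fold lower (-2.43 ± 0.64 SE). Here the ranges overlapped, because O(WT) replicate 2 at 4.54 RPKM lay just above Y(WT) replicate 2 at 4.43 RPKM. With a single library left out, the log2 difference in this cohort ran from -3.10 to -1.51, and in the wheel cohort from -2.50 to -2.21.

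Tac4 did not pass the test for the wheel in old mice or for Ccnd1 genotype. O(+Ex) libraries had 1.74, 1.97, 1.94, 1.46 and 1.92 RPKM, inside the O(-Ex) range (log2 -0.09 ± 0.21 SE, limma, adjusted p = 0.837). Y(+Ex) libraries had 6.605, 6.50 and 5.31 RPKM, in the lower part of the Y(-Ex) range. The log2 difference was -0.65 ± 0.25 SE, and -0.82 to -0.53 with a library left out. The Y(-Ex) mice that serve as controls here are those whose high Tac4 led to its choice. That favours a lower level in Y(+Ex), so no test is attached. The difference between the wheel effects, old minus young, was 0.56 ± 0.32 SE for Tac4 and 0.11 ± 0.28 SE for Tshr. It contains the O(-Ex) and Y(-Ex) libraries whose age difference led to the choice of both genes, so no test is attached. Of all genes, 0.00882% were called in that comparison. Tac4 was 13.2, 12.8, 7.24, 12.1 and 11.3 RPKM in Y(KO) libraries and 17.5, 12.7, 15.0 and 9.69 RPKM in Y(HET) libraries, around the 2 high Y(WT) values. The log2 differences were 0.20 ± 0.57 SE for Y(KO) and 0.48 ± 0.60 SE for Y(HET) (limma, adjusted p = 0.857 and 0.668), and without Y(WT) replicate 2 they were -0.36 and -0.084. In order of mean, the young groups without a turning wheel lay between 13.7 RPKM in Y(HET) and 10.1 in Y(-Ex), Y(+Ex) followed at 6.14 RPKM, and after a gap between ranges came O(WT) at 2.52, O(-Ex) at 1.97 and O(+Ex) at 1.81 RPKM.

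The genes closest to Tac4 over the 36 libraries were Bach1, a repressor of haem-responsive genes (r = 0.91, and 0.51 within groups), Il1rl2, the interleukin 36 receptor (0.88 and 0.23), and Tbl1xr1, a corepressor subunit (0.87 and 0.26). Of the tachykinin system the table also held Tac1, the substance P precursor. Tac1 averaged 1.37 ± 0.66 RPKM in O(-Ex) and 0.716 ± 0.424 RPKM in Y(-Ex) (SD, n = 7 and 6 mice), a log2 difference of 1.19 ± 0.50 SE that was not called (limma, adjusted p = 0.0654, and 0.0306 without Y(-Ex) replicate 3). In the Ccnd1 cohort the Tac1 difference was 1.67 ± 0.55 SE (limma, adjusted p = 0.0538, and 0.026 without Y(WT) replicate 2). Of the 6 tachykinin genes listed, only Tac4 and Tac1 were among the genes measured.

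The thyroid-stimulating hormone receptor separated old from young mice completely. Tshr had a lowest value of 6.61, a median of 7.66 and a highest of 13.1 RPKM in O(-Ex), against 1.93, 2.29 and 3.14 RPKM in Y(-Ex), 3.57-fold higher (log2 1.84 ± 0.17 SE). O(WT) libraries had 8.82, 8.92 and 6.80 RPKM, against 3.297, 3.60 and 1.13 RPKM in Y(WT), 3.41-fold higher (1.77 ± 0.43 SE). Neither pair of ranges overlapped, and the lowest of all old libraries, an O(+Ex) mouse at 4.47 RPKM, was above the highest of all young ones at 3.60 RPKM. Tshr was chosen from the age comparison, so no test is attached.

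Tshr was lower in runners at both ages, a description in old mice and a difference that did not pass the test in young ones. O(+Ex) libraries had 5.56, 8.28, 4.87, 5.21 and 4.47 RPKM, of which all but replicate 2 were below the O(-Ex) minimum of 6.61 RPKM. The log2 difference was -0.58 ± 0.18 SE (1.49-fold lower), and -0.72 to -0.47 with a library left out. The O(-Ex) mice that serve as controls here are those whose high Tshr led to its choice, which favours a lower level in O(+Ex), so no test is attached. Y(+Ex) libraries had 1.25, 1.21 and 1.98 RPKM, with 1 of the 3 inside the Y(-Ex) range, and the log2 difference of -0.69 ± 0.21 SE was not called (limma, adjusted p = 0.102).

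In the Ccnd1 genotypes Tshr showed no called difference. Its values in Y(KO) were 2.14, 1.51, 1.44, 2.26 and 1.94 RPKM (-0.38 ± 0.38 SE against Y(WT), limma, adjusted p = 0.568). Y(HET) libraries had 2.03, 0.66, 1.32 and 0.797 RPKM (-1.13 ± 0.40 SE, limma, adjusted p = 0.112). Y(WT) replicate 3 was lowest of its group, and without it the Y(HET) difference was -1.66 with an adjusted p of 0.0349. Of all genes, 6.99% were called for Y(KO) and 5.39% for Y(HET) against Y(WT), and none of the 4 genes tested in each (Gal, Tac4, Tshr and Avpr1a) was called (limma, lowest unadjusted p 0.24 for Y(KO) and 0.014 for Y(HET)). By mean, O(-Ex) at 8.46, O(WT) at 8.18 and O(+Ex) at 5.68 RPKM stood above a gap, and Y(WT) at 2.68, Y(-Ex) at 2.35, Y(KO) at 1.86, Y(+Ex) at 1.48 and Y(HET) at 1.20 RPKM overlapped neighbour by neighbour below it.

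The closest genes to Tshr were Cyp4f15, a cytochrome P450 (r = 0.92, and 0.42 within groups), Pir, encoding the nuclear protein pirin (0.91 and 0.45), and Srpx2, a secreted sushi-repeat protein (0.90 and 0.75). Tac4 and Tshr ran opposite to each other over the 36 libraries (r = -0.79), but within groups the correlation was 0.05, so the relation is one between group means. Of the glycoprotein hormones the table held Gphb5, the beta subunit of thyrostimulin, an alternative ligand of Tshr. Gphb5 averaged 1.40 ± 0.26 RPKM in O(-Ex) and 2.09 ± 0.98 RPKM in Y(-Ex) (SD, n = 7 and 6 mice) and was called in none of the 8 comparisons (limma; unadjusted p under 0.05 in 2 of the 8, with a lowest of 0.0171). Of 10 measured genes of thyroid hormone handling, 2 rose and 1 fell with age in the wheel cohort, where 38.3% of all genes were called. Dio2, the deiodinase that activates thyroxine, was among those that rose, with 16.9 ± 2.7 RPKM in O(-Ex) and 6.35 ± 1.19 RPKM in Y(-Ex) (log2 1.42 ± 0.13 SE, limma, adjusted p = 1.02e-07). Dio2 was also higher in Y(KO), at 11.2 ± 1.6 RPKM, than in Y(WT), at 6.03 ± 0.79 RPKM (0.90 ± 0.18 SE, limma, adjusted p = 0.0132), a call that was lost without Y(WT) replicate 3 (adjusted p = 0.0545).

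The vasopressin receptor was lower in runners. Avpr1a was 4.39, 1.96, 4.59, 5.25 and 2.61 RPKM in O(+Ex), against a lowest value of 4.34, a median of 5.91 and a highest of 12.2 RPKM in O(-Ex), a 2.02-fold lower level (log2 -1.01 ± 0.31 SE) in the comparison that chose it. The ranges overlapped. Y(+Ex) libraries had 1.98, 2.21 and 2.41 RPKM, all below the Y(-Ex) libraries, whose lowest, median and highest values were 3.24, 5.24 and 10.3 RPKM. This 2.48-fold lower level (-1.31 ± 0.37 SE) missed the threshold (limma, adjusted p = 0.0878, and 0.0524 to 0.316 with a library left out), with an exact two-sided permutation p of 0.0357. The difference between the 2 wheel effects, old minus young, was 0.30 ± 0.48 SE.

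Age and Ccnd1 genotype gave no called difference for Avpr1a. It averaged 7.56 ± 2.87 RPKM in O(-Ex) and 5.94 ± 2.76 RPKM in Y(-Ex) (SD, n = 7 and 6 mice), a log2 difference of 0.39 ± 0.29 SE (limma, adjusted p = 0.313). The O(-Ex) libraries also led to the choice of Avpr1a, so this test is not independent of it. O(WT) libraries had 10.3, 8.25 and 4.50 RPKM, against 7.68, 4.49 and 4.19 RPKM in Y(WT) (0.47 ± 0.31 SE, limma, adjusted p = 0.319). Y(KO) libraries had 9.24, 6.20, 5.05, 7.10 and 6.34 RPKM (0.34 ± 0.28 SE against Y(WT), limma, adjusted p = 0.469) and Y(HET) libraries 11.7, 8.97, 8.97 and 6.54 RPKM (0.76 ± 0.29 SE, limma, adjusted p = 0.137). Y(HET) had the highest mean, 9.05 RPKM, and neighbouring groups in the order of means overlapped down to O(+Ex) at 3.76 and Y(+Ex) at 2.20 RPKM.

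Avpr1a followed Myh11 most closely over the 36 libraries (r = 0.79, and 0.73 within groups), then Cpe (0.78 and 0.58) and Bcl7c (0.75 and 0.54). Cpe encodes carboxypeptidase E, which trims peptide precursors. Myh11 encodes the smooth muscle myosin heavy chain and is one of the 10 listed markers of smooth muscle and pericytes. Its level was 12.3 ± 2.2 RPKM in O(+Ex) and 18.0 ± 4.0 RPKM in O(-Ex) (SD, n = 5 and 7 mice). The log2 difference was -0.53 ± 0.16 SE, and -0.63 to -0.41 with a library left out. In young mice Myh11 was 9.37 ± 1.07 RPKM in Y(+Ex) and 11.5 ± 2.4 RPKM in Y(-Ex) (-0.28 ± 0.20 SE). Myh11 was picked for following Avpr1a in these same libraries, which favours a lower level in runners, so no test is attached. The summed level of all 10 smooth muscle markers was 267 to 328 RPKM in O(+Ex) and 227 to 286 RPKM in O(-Ex), a direction set by Acta2, at 183.7 ± 20.1 RPKM in O(+Ex) and 126.0 ± 21.3 RPKM in O(-Ex). The other 9 summed to 116 to 127 RPKM in O(+Ex) and 112 to 153 RPKM in O(-Ex), and the list median was -0.09 on the log2 scale. Of the 10, 1 was called higher and 3 lower, beside 7.39% of all genes called in this comparison. The 3 include Myh11, whose choice favours a lower level, so this count and the sums are not independent of that choice. Its place among the 3 was lost in 10 of 12 omissions of a library. Endothelial markers summed to 180.1 to 259.6 RPKM in O(+Ex) and 125.6 to 188.8 RPKM in O(-Ex), with 3 of 10 called higher beside the same 7.39%. Yet the sort left out cells with surface CD31, which endothelial cells carry. Pecam1, which encodes CD31, was 24.6 ± 1.8 RPKM in O(+Ex) and 21.3 ± 4.2 RPKM in O(-Ex). The part of vessel cells in the wheel differences of Avpr1a and Gal was not tested. Oxtr, the oxytocin receptor, a relative of Avpr1a, averaged 2.04 ± 2.01 RPKM in Y(+Ex) and 6.27 ± 2.92 RPKM in Y(-Ex) (log2 -2.13 ± 0.56 SE, limma, adjusted p = 0.0722), and without Y(+Ex) replicate 2 the adjusted p was 0.041.

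**Figure D4:**
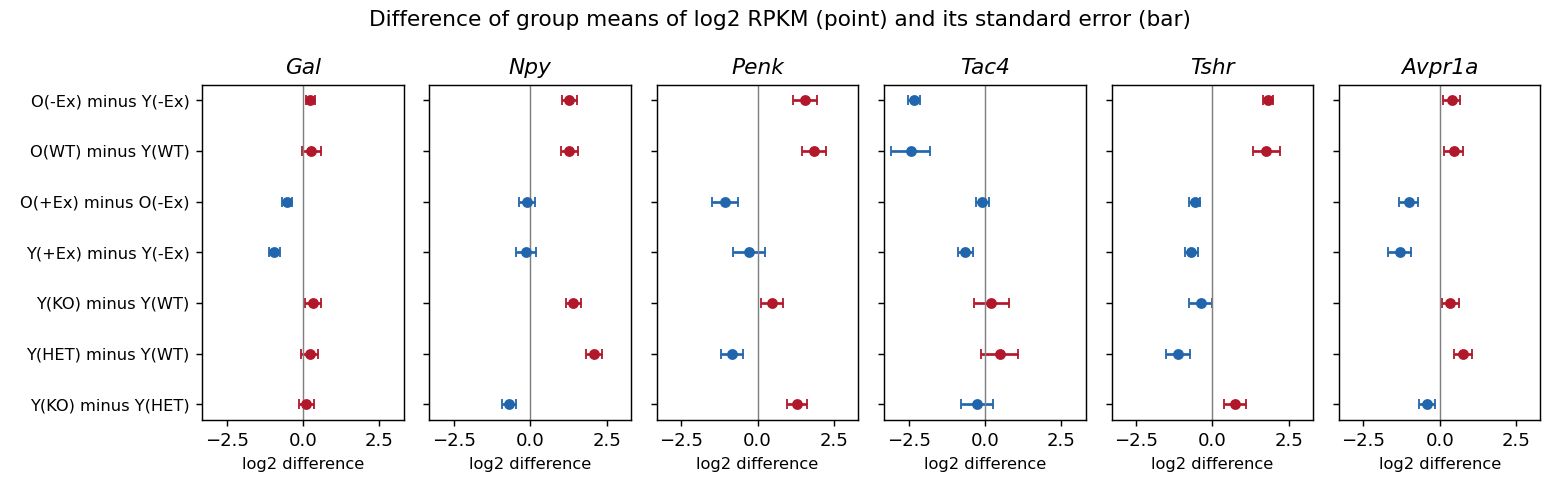
Differences between group means of log2 RPKM (points, with SE as bars) for each gene in 7 comparisons, positive (red) where the first-named group is higher. Npy, Penk and Tshr lie to the right and Tac4 to the left for both age comparisons, Gal, Tshr and Avpr1a lie to the left for the wheel at both ages, and Npy lies to the right for Y(KO) and Y(HET).

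Gal and Avpr1a varied together over the 36 libraries (r = 0.66), though less so within groups (0.25), and their nearest genes did not coincide: those of Gal were Sub1, a transcription coactivator (r = 0.80), Adarb1, an RNA-editing enzyme (0.79), and Stk40 (0.77). The nearest genes of Npy were Pold4, a DNA polymerase delta subunit (0.82), Hilpda, a lipid droplet protein (0.79), and Cxcl16, a chemokine (0.77), and within groups the correlations were 0.46, 0.01 and 0.09. In the authors' deposited table, which gives a coefficient of each gene with Ccnd1, the value was -0.65 for Gal, with 113 genes lower, -0.59 for Avpr1a, with 268 lower, -0.48 for Tac4, -0.42 for Npy, -0.14 for Penk and 0.09 for Tshr. The libraries behind that coefficient are not stated, and recomputing a correlation over all 36 libraries, either cohort or all but 1 group gave largest differences from it of 0.149 to 1.17.

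The machinery that would make and read these peptides was partly present. Of the 5 galanin genes listed, only Gal was among the genes measured. Of 13 measured processing genes (21 listed), 2 rose and 1 fell with age in the wheel cohort, below the 38.3% called over all genes, and the list median was 0.02 beside 0.01 for all genes on the log2 scale. Pam, the amidating enzyme, rose by 0.53 ± 0.09 SE (limma, adjusted p = 0.000168) and Qpct, which forms N-terminal pyroglutamate, by 1.009 ± 0.293 SE (adjusted p = 0.00946). Pcsk7, a convertase, fell by 0.63 on the log2 scale (SE 0.13, adjusted p = 0.000559). Of 11 peptidases, again below that share, 2 fell with age, Npepps (-0.38 ± 0.08 SE, adjusted p = 0.000591) and Ace (-0.63 ± 0.14 SE, adjusted p = 0.00106), which encodes angiotensin-converting enzyme. Ace was higher in O(+Ex), at 10.4 ± 1.7 RPKM, than in O(-Ex), at 7.03 ± 1.04 RPKM (0.57 ± 0.14 SE, adjusted p = 0.0222), a call lost without O(+Ex) replicate 2 (adjusted p = 0.0703).

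Among opioid-related genes other than Penk, Ogfr, the receptor for opioid growth factor, an enkephalin, rose with age in the wheel cohort. It was 36.7 ± 5.8 RPKM in O(-Ex) and 24.1 ± 7.7 RPKM in Y(-Ex) (log2 0.64 ± 0.15 SE, limma, adjusted p = 0.00188). Ogfrl1 gave -0.01 ± 0.18 SE.

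Of 16 other peptide ligands measured (53 listed), 6 rose and 2 fell with age in the wheel cohort, beside 38.3% of all genes called in either direction. Kng2, a kininogen, rose by 1.88 ± 0.18 SE (limma, adjusted p = 2.18e-07) and Adm, the adrenomedullin precursor, by 0.66 ± 0.10 SE (adjusted p = 4.02e-05). Nppc, the C-type natriuretic peptide precursor, was 286.4 ± 83.1 RPKM in O(-Ex) and 723.3 ± 114.8 RPKM in Y(-Ex) (-1.37 ± 0.15 SE, adjusted p = 1.04e-06), and Fndc5, the irisin precursor, fell by 1.39 on the log2 scale (SE 0.31, adjusted p = 0.00142). Of 22 other peptide receptors (60 listed), a share near that of all genes was called: 3 rose, among them Lepr, the leptin receptor (0.59 ± 0.17 SE, adjusted p = 0.00808), and Crcp, a calcitonin gene-related peptide receptor component whose call was lost without Y(-Ex) replicate 3 (adjusted p = 0.0513), and 5 fell, among them Sort1, which also binds neurotensin, and the calcitonin receptor Calcr (-0.42 ± 0.09 SE, adjusted p = 0.000979). In O(+Ex) relative to O(-Ex), higher levels were called for Nucb2, the nesfatin precursor (0.43 ± 0.10 SE, limma, adjusted p = 0.0152), and Ramp2, an adrenomedullin receptor subunit (0.41 ± 0.09 SE, adjusted p = 0.0126), and a lower one for Calca, the calcitonin and CGRP precursor (-0.62 ± 0.14 SE, adjusted p = 0.0127). In Y(+Ex), Adm rose relative to Y(-Ex) (0.77 ± 0.13 SE, limma, adjusted p = 0.0082), a call lost without Y(+Ex) replicate 1 or 2 (adjusted p = 0.0717 and 0.0516). The other call among the ligands there, a lower one, was Ucn2, the urocortin 2 precursor, at 0.0431 ± 0.0521 RPKM in Y(+Ex) and 0.225 ± 0.108 RPKM in Y(-Ex) (SD, n = 3 and 6 mice; -3.00 ± 0.66 SE, limma, adjusted p = 0.0287). That call was lost without Y(+Ex) replicate 2 or 3 or Y(-Ex) replicate 4, 5 or 6 (adjusted p from 0.0507 to 0.27) and with a pseudocount of 0.5 RPKM (-0.41, adjusted p = 0.449).

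Downstream, 7 of 38 Gs, Gi and cyclic AMP genes rose and 11 fell with age in the wheel cohort (list median -0.09), and 4 of 23 Gq and calcium genes rose and 7 fell (list median -0.12), shares somewhat above the 38.3% of all genes called. Gnai1, an inhibitory G protein subunit, rose by 0.93 ± 0.11 SE (limma, adjusted p = 2.13e-06) and Adcy2, an adenylyl cyclase, by 0.50 ± 0.07 SE (adjusted p = 5.93e-06). Pde7b, a cyclic AMP phosphodiesterase, fell by 0.73 (SE 0.08, adjusted p = 7.33e-07) and Prkacb, a catalytic subunit of protein kinase A, by 0.56 (SE 0.09, adjusted p = 9.45e-05). On the Gq side Plcb1, a phospholipase C, rose by 1.25 ± 0.25 SE (adjusted p = 0.000596), whereas Gnaq fell by 0.46 (SE 0.08, adjusted p = 0.000121) and Rgs4 by 0.56 (SE 0.07, adjusted p = 3.37e-06). For the wheel in old mice 4 of the 38 cyclic AMP genes fell, where 7.39% of all genes were called, with Crem, a cyclic AMP response modulator, at 27.7 ± 2.6 RPKM in O(+Ex) and 37.5 ± 4.3 RPKM in O(-Ex) (-0.43 ± 0.09 SE, limma, adjusted p = 0.00935). In young mice Gnai1 was 1.92 ± 0.04 RPKM in Y(+Ex) and 3.40 ± 0.25 RPKM in Y(-Ex) (-0.83 ± 0.14 SE, limma, adjusted p = 0.0082), a call lost without Y(+Ex) replicate 2 (adjusted p = 0.0582). Crem was 36.4 ± 3.6 RPKM in Y(KO) and 25.5 ± 2.5 RPKM in Y(HET), a log2 difference of 0.51 ± 0.10 SE (limma, adjusted p = 0.00844).

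Beside the age differences stand the markers of other cell types. In the keratinocyte, tenocyte, mature fibre and Schwann cell lists, shares near the 38.3% of all genes were called. Of 9 haematopoietic markers 1 was higher and 0 lower, and of 3 adipocyte markers 1 was higher and 1 lower. Of 10 endothelial markers 3 were higher and 0 lower, and of 10 smooth muscle markers 1 was higher and 2 lower. Keratinocyte markers summed to 13.9 to 20.8 RPKM in O(-Ex) and 6.12 to 9.73 RPKM in Y(-Ex), with 3 of 7 higher. Tenocyte markers summed to 63.5 to 271.6 RPKM in O(-Ex) and 46.1 to 146.3 RPKM in Y(-Ex), with 3 of 7 higher. Mature fibre markers summed to 55.3 to 193.8 RPKM in O(-Ex) and 133.9 to 708.5 RPKM in Y(-Ex), with 3 of 9 lower. Schwann cell and nerve markers summed to 252.1 to 283.1 RPKM in O(-Ex) and 253.4 to 361.9 RPKM in Y(-Ex), with 3 of 11 higher and 1 lower. In Y(KO), tenocyte markers summed to 116.3 to 212.3 RPKM, against 29.8 to 147.9 RPKM in Y(WT), with 2 of 7 higher, beside 6.99% of all genes called. The part of these cells in the values of the 6 genes was not tested.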

How the data were processed

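Polyadenylated RNA of sorted muscle stem cells was sequenced, per the labels, and the submitters' processing notes name Trim Galore, STAR, featureCounts, Subread and mm10, with no versions. The authors deposited RPKM values for 11337 genes in 36 libraries, and their unit was read from the values: RPKM times exon length in kilobases summed to 958293 to 1204774 per library, 11335 IDs were found in GENCODE M21, 5 symbols stood on 2 lines and no value was 0. The authors also deposited 1 score per gene, a coefficient with Ccnd1, whose making is not stated. Counts were not used here and depth is unknown from the table, so no counting interval is given and no count model was run, although one had been planned for counts.

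Log2 RPKM without a pseudocount was tested with limma 3.58.1 (R 4.3.3, trended and robust moderation) with 1 mean per group, separately in the wheel and Ccnd1 cohorts, and adjusted p (Benjamini-Hochberg) took in every gene of the table, with calls at 0.05. SE are limma's. Exact two-sided permutation tests used the same values. The code was tested on simulated data. The absent directions of variation mean that both kinds of p-value rest on reduced spread, and what removed it is not stated. Python 3.11.15 with numpy 2.4.6, pandas 2.3.3, scipy 1.17.1 and matplotlib 3.10.9 did the rest.

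The 6 genes and all lists were chosen with earlier results of these data known. Named besides them were the 3 genes with the highest correlation to each (mean of at least 1 RPKM), up to 2 called genes per list, direction and comparison by lowest p, and every measured partner of the 6. Dcn and Myh11 come from the correlation rule, so their differences are given without a test. Alternatives were a pseudocount of 0.5 RPKM, a filter at a mean of 1 RPKM, median-of-ratios scaling, a fit of all 36 libraries, a fit of only the groups compared, plain moderation, a replicate block, exact permutation and leaving out each library. For list genes, Dcn and Myh11 these alternatives were added after seeing the data. Some genes of the lists are not reported here.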

Additional observations from a re-analysis of the deposited data

Results flagged for a closer look

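Among the 30 pairs of gene and group with 4 to 10 mice, a library stood far from the rest of its group in 2, and about 1 in 20 would do so by chance. In O(+Ex), Tshr was 8.28 RPKM in replicate 2, and the other 4 mice lay between 4.47 and 5.56 RPKM. In O(-Ex), Tshr was 13.1 RPKM in replicate 1, and the other 6 lay between 6.61 and 8.92 RPKM. Without O(+Ex) replicate 2 the wheel difference in old mice was -0.72 on the log2 scale, and without O(-Ex) replicate 1 it was -0.47.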

How the results depend on the processing

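For the wheel in old mice Gal was called and Tac4 was not. Tshr is left out there, since its O(-Ex) libraries led to its choice. The Gal call was lost with all 36 libraries in 1 fit (limma, adjusted p = 0.0756) and with plain moderation (limma, adjusted p = 0.0547). It was kept with only the groups compared and with the replicate block. With a library left out, it was kept in 3 of 12 omissions. For the wheel in young mice the number of genes called was 0, but 1 (Avpr1a) with all 36 libraries in 1 fit and 2 (Tshr and Avpr1a) by exact permutation before adjustment. With a library left out it was 0. Tac4 is left out there, since its Y(-Ex) libraries led to its choice. For Y(HET) against Y(WT) it was 0, but 1 (Tshr, adjusted p = 0.0333) with all 36 libraries in 1 fit and 0 to 1 with a library left out. Directions turned as follows, on the log2 scale. Tshr for the wheel effect, old minus young, was -0.0023 with a pseudocount and -0.036 to 0.34 with a library left out. With a library left out, Tac4 ran from -0.16 to 0.0075 for the wheel in old mice, from -0.36 to 0.50 for Y(KO) and from -0.084 to 0.78 for Y(HET) against Y(WT), and Gal from -0.076 to 0.24 for Y(KO) against Y(HET). Of 429 values with a test, 390 kept direction and side of the threshold, 25 lost the call, 6 gained it and 8 turned. In this tally exact permutation was held to 0.05 before adjustment and the other settings after it. Of the 6 gains, 2 (Tshr and Avpr1a, wheel in young mice) came from exact permutation. The 429 still include Tshr for the wheel in old mice and Tac4 for the wheel in young mice. They also include Tac4 and Tshr for the wheel effect, old minus young. Of 459 values without a test, 13 turned. Penk for Y(KO) against Y(WT) was -0.02 without Y(WT) replicate 3, where all libraries gave 0.46. Npy for the wheel in young mice reached 0.03 with a library left out and 0.0011 with the replicate block (-0.13 otherwise), and for the wheel effect, old minus young, -0.14 and -0.20 (0.03 otherwise).

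Of 44 same-numbered pairs of libraries, 8 correlated above 0.1 after group means were removed, with r from -0.26 to 0.30 and a median of 0.014. The deposited values lack part of their spread, so this cannot show whether replicate numbers pair the mice. With the replicate block, Gal kept its call in old runners (adjusted p = 0.0485), and the number of all genes called was 14 in young runners, 1 for Y(KO) and 179 for Y(HET) against Y(WT), and 262 for Y(KO) against Y(HET). Without the block these were 127, 793, 611 and 685. With only the groups compared they were 22, 379, 300 and 327, and with plain moderation young runners had 84. Median-of-ratios scaling, which shifts the median of a comparison by at most 0.089 on the log2 scale, gave 330 for Y(KO) against Y(HET), 199 higher and 131 lower, where the unscaled values gave 584 and 101. For Y(KO) against Y(WT) it gave 426 higher and 271 lower, where the unscaled values gave 573 and 220, and for Y(HET) against Y(WT) 274 and 187, where the unscaled values gave 225 and 386. With a library left out the counts ran from 5 to 205 (young runners), 351 to 923 (old runners), 98 to 938 (Y(KO)), 68 to 621 (Y(HET)), 265 to 743 (Y(KO) against Y(HET)), 873 to 1366 (age, Ccnd1 cohort) and 1 to 5 (difference of wheel effects). The cause of these changes was not tested. Read depth is unknown, so its limit on the genes below 1 RPKM cannot be given.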
